A study of Arabidopsis thaliana with 12 samples.

Results

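The light response was compared, gene by gene, between 2 lines of Arabidopsis thaliana seedlings, flu1-1 ex1 and flu1-5 ex1. The light change of a gene is its level after light minus its level in dark within a line, on the log2(TPM + 1) scale, where TPM, transcripts scaled to a fixed total per library, is a relative abundance that accounts for transcript length. The quantity tested here is the light change in flu1-5 ex1 minus the light change in flu1-1 ex1, called the difference below; a positive value means a stronger rise or a weaker fall in flu1-5 ex1. Genes entered where the tables of both lines list the same transcript, which held for 26684 of 27655 genes, and all 12 libraries of the study were used. Of these genes, 17830 averaged 1 TPM or more across the 12 libraries and were tested. All seedlings carried a mutation in FLU and the ex1 mutation in EXECUTER1, and the lines differ in their flu allele. Seeds spent 2 days at 4 °C, seedlings grew in constant light at 22 °C until day 6, and all were then placed in darkness for 4 h. The dark groups were sampled at that point and the light groups after 1 h of light, with 3 libraries in each of the 4 groups and around 100 pooled seedlings behind each library, per the file headers. No group had intact FLU or EXECUTER1 and none was kept dark for the added hour, so within a line the effects of singlet oxygen, of light itself and of time cannot be told apart. The genotype field of the labels names flu1-1/ex1 for all 12 libraries, and the groups used here follow the titles and library names. Replicates are not stated to come from separate cultures, so the p-values reflect only how far these libraries vary, perhaps for technical reasons. Whole seedlings were measured, so fewer cells of a type and less RNA per cell cannot be told apart.

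FLU limits the making of chlorophyll precursors when plants are in darkness. In flu mutants the precursor protochlorophyllide builds up in the dark, and once light returns it passes energy to oxygen and gives singlet oxygen inside the chloroplast. EXECUTER1 is a thylakoid-associated protein through which much of the gene response to this singlet oxygen is known to run, so lines that lack it are used to look for responses that do not need it.

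Totals per library were 929954 to 935223 TPM, and 17660 to 18169 genes per library reached 1 TPM; TPM keeps no read number, so depth is unknown. Libraries of one group had Pearson r of 0.9935 to 0.9947 with each other, taken over genes. Chloroplast-encoded genes took 1.21% to 2.87% of TPM, with the highest share in replicate 3 of flu1-1 ex1 dark. FLU (AT3G14110) stood at 197, 184 and 189.6 TPM in flu1-1 ex1 and 13.2, 13.8 and 15.5 TPM in flu1-5 ex1 in dark, and at 193, 189.9 and 189.9 TPM in flu1-1 ex1 and 17.0, 14.1 and 15.4 TPM in flu1-5 ex1 in light. The lines did not overlap in FLU and were separated as their titles say, while its difference of light changes was 0.11 (SE 0.09, limma adjusted p = 0.383) and was not called. EX1 (AT4G33630), whose transcript remained measurable, stood at 37.1, 42.2 and 40.9 TPM in dark and 51.2, 49.1 and 52.7 TPM in light in flu1-1 ex1. In flu1-5 ex1, EX1 stood at 45.3, 44.9 and 45.8 TPM in dark and 86.3, 73.5 and 83.2 TPM in light. It was highest in the 3 flu1-5 ex1 light libraries, with a difference of 0.48 (SE 0.083, limma adjusted p = 0.000793); EX2, its closest relative, had -0.015 (adjusted p = 0.866). Green-tissue markers were abundant, for instance RBCS1A, a small subunit of Rubisco, at 16120.0 ± 565 TPM in flu1-1 ex1 dark (SD, n = 3), whereas the 6 root hair markers reached at most 1.34 TPM in any library.

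The light response of flu1-5 ex1 differed from that of flu1-1 ex1 in 5273 genes, 29.6% of those tested, at a limma adjusted p under 0.05, the threshold for "called" throughout. In 2012 genes (11.3%) the difference was positive and in 3261 (18.3%) it was negative. Most differences were small: the median was 0.497 among the positive calls, -0.358 among the negative calls and -0.056 over all genes tested. At a size of at least 2-fold the balance turned, with 362 genes higher (2.03%) and 142 lower (0.796%) in flu1-5 ex1, so that 71.8% of these calls were positive. These counts depended on the pseudocount, with 220 higher and 34 lower at a pseudocount of 5 and 415 higher and 238 lower at 0.1; more were higher than lower at each. As a background for the light changes, 44.8% of genes tested rose and 28.9% fell with light in flu1-1 ex1, and 39.2% rose and 30.1% fell in flu1-5 ex1, in the same fit. Between the lines, 14.7% of genes were higher and 5.68% lower in flu1-5 ex1 in dark, and 18.1% were higher and 21% lower in light. These contrasts share libraries with the difference and are given as descriptions.

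**Figure D1:**
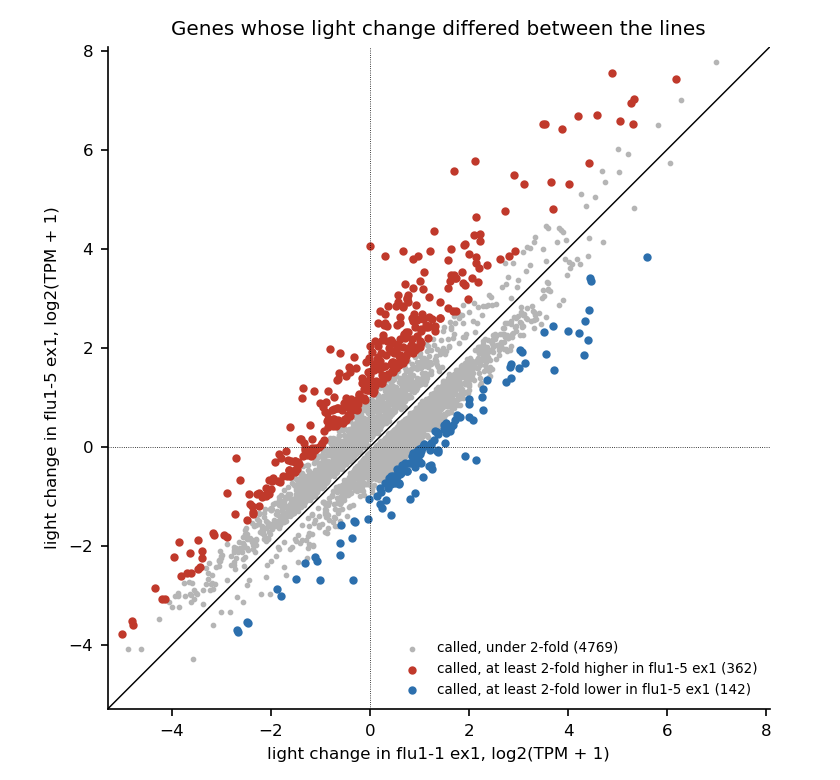
Light change of each gene with a called difference in flu1-1 ex1 (horizontal axis) and flu1-5 ex1 (vertical axis), both in log2(TPM + 1); the solid line marks equal changes. The 362 red genes lie at least 1 unit above the line and the 142 blue genes at least 1 unit below it, and the remaining called genes in grey lie closer to it.

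The large positive differences were mostly stronger inductions, and the many small negative ones mostly weaker inductions. Of the 362 genes at least 2-fold higher, 163 rose in both lines and more so in flu1-5 ex1, 51 rose in flu1-5 ex1 and were not called in flu1-1 ex1, and 60 rose in flu1-5 ex1 but fell in flu1-1 ex1. The other positive calls of this size fell in flu1-1 ex1, 67 of them also in flu1-5 ex1 and 21 without a called change there. Among all 2012 positive calls a weaker fall in flu1-5 ex1 was the most frequent pattern, with 818 genes (40.7%) falling in both lines, against 559 (27.8%) rising in both. Among the 3261 negative calls 1750 (53.7%) rose in both lines, less in flu1-5 ex1, and 652 rose in flu1-1 ex1 with no call in flu1-5 ex1. Of the 142 genes at least 2-fold lower, 43 rose in both lines, 43 rose in flu1-1 ex1 and fell in flu1-5 ex1, and 30 rose in flu1-1 ex1 with no call in flu1-5 ex1. For 162 of the 362 genes and 80 of the 142 the lines differed after light and were not called different in dark; in another 153 of the 362 the lines differed in the same direction at both times.

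**Figure D2:**
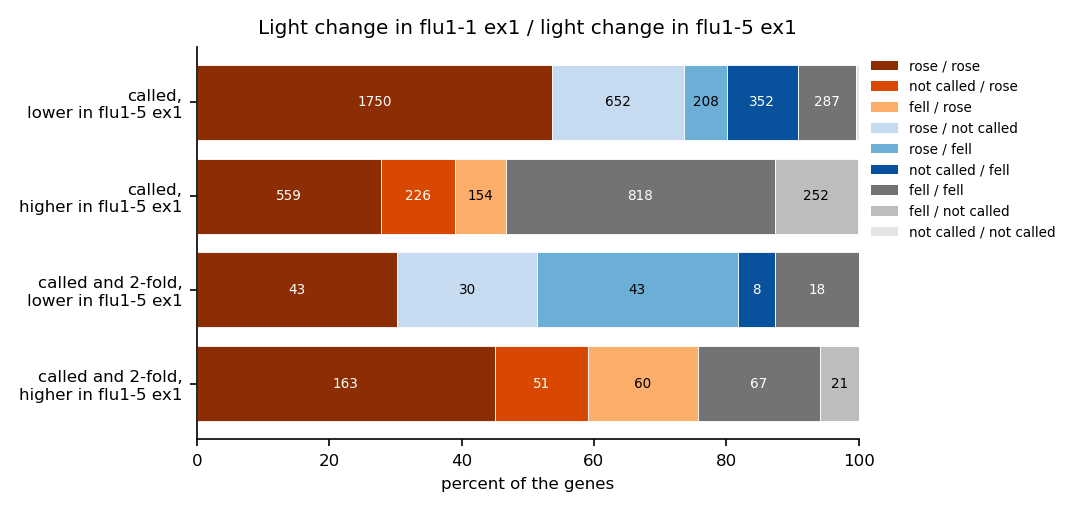
Share of called genes by their light change in flu1-1 ex1 (first word) and flu1-5 ex1 (second word), in percent, with gene counts in the segments over 5%. Genes rising in both lines make up 53.7% of all negative calls and 45% of the positive calls of at least 2-fold.

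Large differences were ranked among genes averaging no less than the median gene tested (15.3 TPM over the 12 libraries). The 15 largest positive ones included 4 transcription factors, a pair of calcium sensors and 3 small heat shock proteins. A high level in flu1-5 ex1 light alone can carry a gene over that mean, as for MYB15 and CML37 below. It can likewise carry a gene over the filter of 1 TPM, as for HSP21, ACA13 and CRK39 below. MYB15 (AT3G23250), a MYB factor of lignin and cold responses, stood in replicates 1 to 3 at 0.177, 0.265 and 0.0467 TPM in dark and 3.23, 2.68 and 2.34 TPM in light in flu1-1 ex1. In flu1-5 ex1, MYB15 stood at 0.541, 0.491 and 0.00187 TPM in dark and 65.4, 59.9 and 59.5 TPM in light. In dark the lines overlapped near 0, and in light the flu1-5 ex1 libraries were all far above those of flu1-1 ex1. Its light change was 1.69 in flu1-1 ex1 and 5.57 in flu1-5 ex1, a difference of 3.88 (SE 0.22, limma adjusted p = 3.35e-08). CML37 (AT5G42380), a calmodulin-like calcium sensor induced by wounding, stood at 0, 0.0926 and 0.0489 TPM in dark and 3.86, 3.31 and 3.56 TPM in light in flu1-1 ex1. In flu1-5 ex1, CML37 stood at 0.189, 0.0935 and 0.187 TPM in dark and 65.8, 63.1 and 56.9 TPM in light. The same order held, with every flu1-5 ex1 light library above every flu1-1 ex1 light library and dark levels under 1 TPM, and the difference was 3.64 (SE 0.13, limma adjusted p = 5.91e-10). ERF105 (AT5G51190), an ERF factor of cold responses, was listed at 0 in each library of flu1-1 ex1 in dark and 0 in each library in light. In flu1-5 ex1 it was at 8.76, 2.35 and 10.2 TPM in dark and 119, 118 and 118 TPM in light. Such a 0 may be an estimate that failed, and ERF105 is given without a fold.

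Several regulators changed in opposite directions in the lines. ERF6 (AT4G17490), an ethylene response factor active under oxidative stress, stood at 19.6, 16.8 and 17.9 TPM in dark and 10.4, 9.82 and 9.55 TPM in light in flu1-1 ex1. In flu1-5 ex1, ERF6 stood at 24.0, 25.8 and 28.4 TPM in dark and 104, 102 and 109 TPM in light. In flu1-1 ex1 its light libraries were all below the dark ones and in flu1-5 ex1 all above, with a light change of -0.80 in flu1-1 ex1 and 1.97 in flu1-5 ex1 and a difference of 2.78 (SE 0.10, limma adjusted p = 5.27e-10). CML38, a calmodulin-like sensor also tied to low oxygen, fell from 10.8 ± 2.28 TPM to 3.59 ± 0.334 TPM in flu1-1 ex1 and rose from 26.2 ± 3.57 TPM to 61.1 ± 7.02 TPM in flu1-5 ex1 (SD, n = 3). Its difference was 2.54 (SE 0.19, limma adjusted p = 7.15e-07). AT2G26190, annotated as a calmodulin-binding family protein, had 2.03 (adjusted p = 6.79e-08) and went from 18.9 ± 1.61 TPM to 59.5 ± 2.51 TPM in flu1-5 ex1 (SD, n = 3). Its level in flu1-1 ex1 went from 11.1 ± 0.813 TPM to 8.04 ± 1.08 TPM (SD, n = 3), a called fall. TCH4 (AT5G57560), a touch-induced enzyme that remodels cell wall xyloglucan, showed the largest gap among genes that fell in both lines. It stood at 161, 166 and 166 TPM in dark and 26.4, 24.7 and 22.3 TPM in light in flu1-1 ex1. In flu1-5 ex1, TCH4 stood at 287, 294 and 295 TPM in dark and 254, 242 and 250.3 TPM in light, with no overlap between any of the groups. Its fall was -2.70 in flu1-1 ex1 and -0.23 in flu1-5 ex1, a difference of 2.47 (SE 0.067, limma adjusted p = 7.28e-11). EXO, a brassinosteroid-responsive growth gene, likewise fell less in flu1-5 ex1, from 323 ± 12.4 TPM to 19.8 ± 0.639 TPM in flu1-1 ex1 and from 364 ± 5.76 TPM to 77.1 ± 2.53 TPM in flu1-5 ex1 (SD, n = 3), with a difference of 1.73 (SE 0.051, limma adjusted p = 1.75e-10). BON1, a copine that restrains immunity, and BAG6, a co-chaperone, had differences of 2.47 (adjusted p = 2.62e-07) and 2.50 (adjusted p = 2.24e-09). AT1G47130, an uncharacterized protein, had 3.03 (adjusted p = 0.00327), but stood at 0 in 2 dark libraries of flu1-1 ex1, and with a pseudocount of 0.1 its difference was 1.32 (adjusted p = 0.507). AT5G54165, annotated as an Avr9/Cf-9 rapidly elicited protein, and AT5G10695, annotated as a methionyl-tRNA synthetase, rose in both lines and had 2.53 (adjusted p = 2.31e-06) and 2.37 (adjusted p = 6.43e-07).

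**Figure D3:**
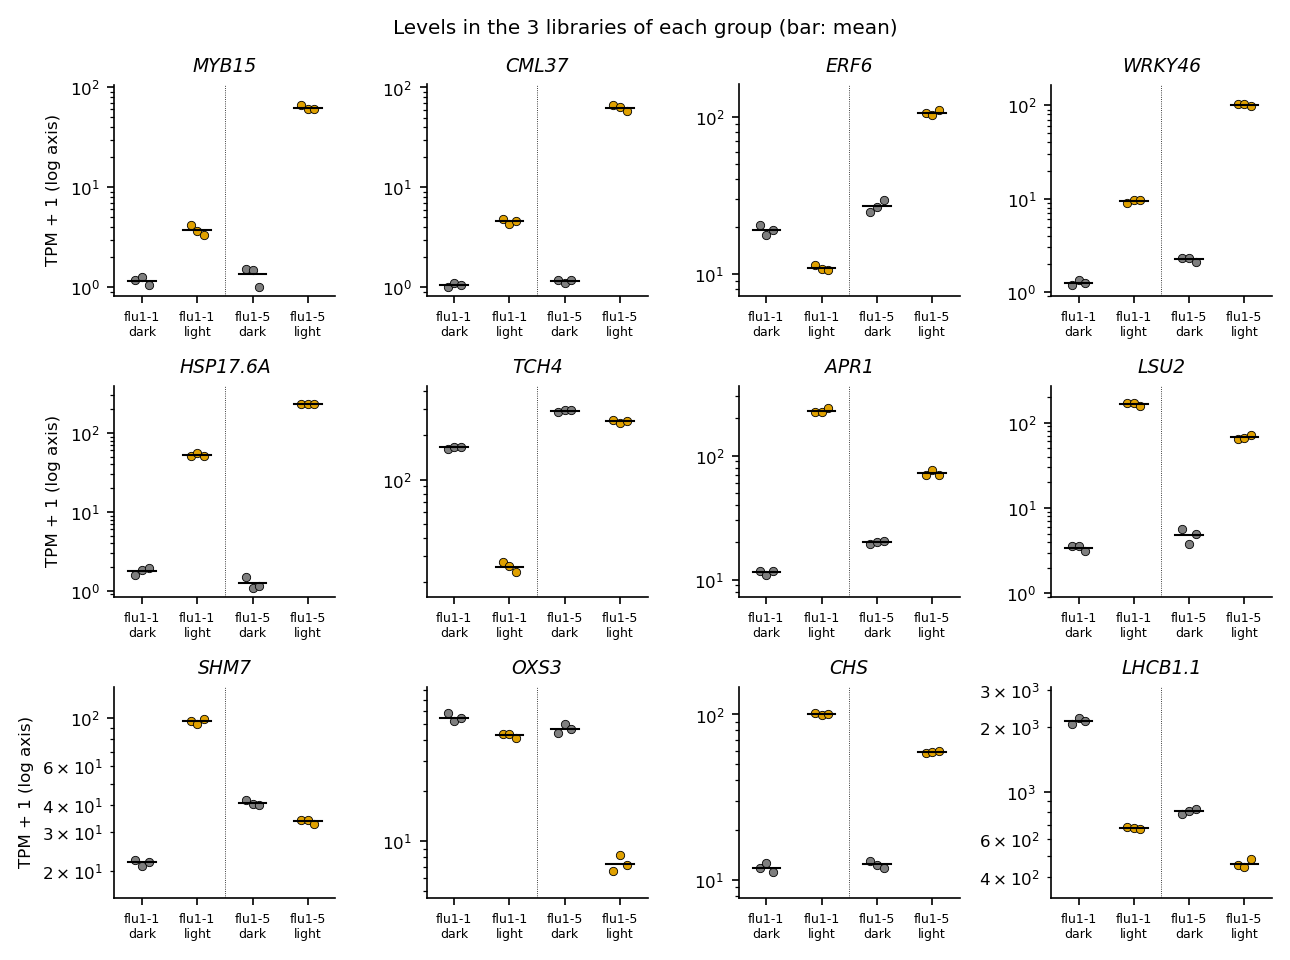
Level of 12 genes in each library, as TPM + 1 on log axes that differ between panels; grey points are dark, yellow points are light, and bars are means of 3 libraries. MYB15, CML37, WRKY46 and HSP17.6A end higher in flu1-5 ex1 light, APR1, LSU2, CHS and OXS3 end lower, and SHM7 rises in flu1-1 ex1 and falls in flu1-5 ex1.

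The list of genes known for an early singlet oxygen response in flu had the highest median difference among the lists. Its members were chosen with earlier results of these data known, so its rank is a description without a test. Its median of 1.5 became 1.204 with a pseudocount of 5 and 1.35 without flu1-5 ex1 dark replicate 3. Of 18 tested members of this list, 16 were called higher and 0 lower, with a median difference of 1.5, against 11.3% higher and a median of -0.056 over all genes. Their median light change was 0.88 in flu1-1 ex1 and 2.01 in flu1-5 ex1. In dark, 16 of them were already called higher in flu1-5 ex1, against 14.7% of all genes. Their median line difference was 0.81 in dark and reached 2.63 in light. WRKY46 (AT2G46400), a WRKY factor of defence and drought responses, stood at 0.189, 0.330 and 0.249 TPM in dark and 7.96, 8.57 and 8.77 TPM in light in flu1-1 ex1. In flu1-5 ex1, WRKY46 stood at 1.3, 1.33 and 1.09 TPM in dark and 102, 101 and 96.9 TPM in light. Its light libraries were separated by line without overlap, and the difference was 2.58 (SE 0.11, limma adjusted p = 2.14e-09). BAP1, a copine partner that restrains cell death, stood at 1.17, 1.28 and 0.714 TPM in dark and 1.67, 1.88 and 1.45 TPM in light in flu1-1 ex1. In flu1-5 ex1, BAP1 stood at 2.34, 3.44 and 3.61 TPM in dark and 13.8, 16.1 and 16.1 TPM in light. Light libraries lay above dark ones in both lines without overlap, by little in flu1-1 ex1 and by far more in flu1-5 ex1, a difference of 1.61 (SE 0.20, limma adjusted p = 5.37e-05). LOX3, a lipoxygenase of jasmonate synthesis, went from 2.87 ± 0.107 TPM to 10.8 ± 0.314 TPM in flu1-1 ex1 and from 3.53 ± 0.191 TPM to 45.0 ± 2.59 TPM in flu1-5 ex1 (SD, n = 3), a difference of 1.73 (SE 0.089, limma adjusted p = 1.65e-08). ZAT12, a zinc finger repressor of oxidative stress, rose from 3.44 ± 0.819 TPM to 36.4 ± 1.2 TPM in flu1-1 ex1 and from 16.1 ± 1.31 TPM to 261 ± 6.66 TPM in flu1-5 ex1 (SD, n = 3), with a smaller difference of 0.84 (SE 0.14, limma adjusted p = 0.000675). OXI1, a kinase of the cell death response to singlet oxygen, rose from 0.321 ± 0.102 TPM to 10.9 ± 0.683 TPM in flu1-1 ex1 and from 1.28 ± 0.192 TPM to 36.1 ± 0.888 TPM in flu1-5 ex1 (SD, n = 3). Its difference of 0.85 (SE 0.12, limma adjusted p = 0.00019) depended on the pseudocount: with 0.1 in place of 1 it was -0.011 (adjusted p = 0.977). The AAA-ATPase gene AT3G28580, a classical marker of this response, did not reach the filter on low values; it stood at 0.0336, 0 and 0.0708 TPM in dark and 0.762, 0.721 and 0.732 TPM in light in flu1-1 ex1. In flu1-5 ex1, AAA-ATPase stood at 0.137, 0.272 and 0.203 TPM in dark and 2.97, 3.00 and 2.51 TPM in light. GRXS13, a glutaredoxin, and OM66, a mitochondrial AAA-ATPase, did not pass the test, with differences of 0.31 (adjusted p = 0.34) and 0.22 (adjusted p = 0.115).

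Families of stress transcription factors leaned the same way, though a gene can be in more than 1 list. Over all genes tested, 11.3% were called higher and 18.3% lower. Among ERF and DREB factors, 19 of 27 were called higher and 1 lower (median 0.80). ERF13 rose from 0.368 ± 0.215 TPM to 2.13 ± 0.291 TPM in flu1-1 ex1 and from 1.31 ± 0.302 TPM to 34.7 ± 2.08 TPM in flu1-5 ex1 (SD, n = 3), a difference of 2.76 (SE 0.18, limma adjusted p = 1.8e-07). DREB26 was the 1 member called lower, at -1.06 (SE 0.068, limma adjusted p = 1.25e-07), and fell from 42.7 ± 0.880 TPM to 6.82 ± 0.223 TPM in flu1-1 ex1 and from 61.6 ± 0.556 TPM to 4.39 ± 0.266 TPM in flu1-5 ex1 (SD, n = 3). Among WRKY factors, 14 of 26 were higher and 1 lower (median 0.32). WRKY18, a regulator of basal defence, stood at 8.87, 7.45 and 10.8 TPM in dark and 3.71, 5.50 and 8.32 TPM in light in flu1-1 ex1. In flu1-5 ex1, WRKY18 stood at 8.27, 9.65 and 8.54 TPM in dark and 36.6, 36.8 and 32.8 TPM in light. Dark and light libraries overlapped in flu1-1 ex1, where the fall was called, and were apart in flu1-5 ex1, where it rose; the difference was 2.49 (SE 0.29, limma adjusted p = 5.9e-05). WRKY28 had the same opposition, from 4.71 ± 0.569 TPM to 1.2 ± 0.0779 TPM and from 4.79 ± 0.490 TPM to 10.3 ± 0.474 TPM (SD, n = 3), and a difference of 2.34 (SE 0.13, limma adjusted p = 3.61e-08). WRKY75, a factor of senescence and phosphate response, was the member called lower, at -0.94 (adjusted p = 0.0216), and with a pseudocount of 0.1 it was at -1.53 and not called (adjusted p = 0.0733). Its call was also lost without flu1-1 ex1 dark replicate 3, flu1-1 ex1 light replicate 3 or flu1-5 ex1 light replicate 1, where it was at -0.79 to -0.85 (adjusted p = 0.0521 to 0.0533). C2H2 zinc finger repressors followed, with 8 of 9 higher and 1 lower (median 0.84); ZAT11 had 2.08 (adjusted p = 2.64e-07) and ZAT8 had 1.89 (adjusted p = 5.25e-05), while AZF3 had -0.54 (adjusted p = 0.00977).

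Many calcium and kinase genes upstream of such factors were also higher, beside 11.3% called higher and 18.3% called lower over all genes. Of 16 tested calcium sensors and touch genes, 11 were called higher and 2 lower (median 0.82); the count lower was 1 without any one of 8 libraries (flu1-1 ex1 dark replicates 1 and 3 and light replicates 1 and 2, flu1-5 ex1 dark replicates 1 and 2 and light replicates 1 and 3). ACA13, a calcium pump of the plasma membrane, rose from 0.352 ± 0.116 TPM to 1.45 ± 0.0298 TPM in flu1-1 ex1 and from 0.296 ± 0.0443 TPM to 16.8 ± 0.701 TPM in flu1-5 ex1 (SD, n = 3), a difference of 2.92 (SE 0.13, limma adjusted p = 5.7e-09). MSL10, a mechanosensitive channel, went the other way, from 1.99 ± 0.668 TPM to 14.7 ± 1.33 TPM in flu1-1 ex1 and from 2.73 ± 0.424 TPM to 9.78 ± 1.89 TPM in flu1-5 ex1 (SD, n = 3), with -0.89 (SE 0.23, limma adjusted p = 0.01). Of 14 MAP kinase and NADPH oxidase genes, 7 were higher and 0 lower (median 0.36, or 0.19 without flu1-1 ex1 light replicate 2). MPK3, a MAP kinase of defence, stood at 53.1, 49.6 and 50.4 TPM in dark and 56.2, 54.0 and 52.6 TPM in light in flu1-1 ex1. In flu1-5 ex1, MPK3 stood at 80.3, 78.5 and 76.0 TPM in dark and 251, 248 and 239 TPM in light. Light left it nearly level in flu1-1 ex1, where the change was a called 0.087, and raised it in flu1-5 ex1, a difference of 1.55 (SE 0.053, limma adjusted p = 4.94e-10). RBOHD, the NADPH oxidase that makes superoxide outside the cell, rose from 10.9 ± 0.989 TPM to 23.2 ± 0.773 TPM in flu1-1 ex1 and from 18.8 ± 0.495 TPM to 102 ± 5.05 TPM in flu1-5 ex1 (SD, n = 3), a difference of 1.36 (SE 0.083, limma adjusted p = 8.11e-08). MPK4 and MPK6, MAP kinases related to MPK3, had differences of -0.011 (adjusted p = 0.913) and 0.039 (adjusted p = 0.67) and were not called.

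Hormone lists were mixed, with salicylic acid and jasmonate genes leaning higher. Over all genes tested, 11.3% were called higher and 18.3% lower. Of 16 tested salicylic acid and immunity genes, 10 were called higher and 0 lower (median 0.63); with no filter on low values 3 were lower and the median was 0.31. SARD1, a factor that switches on salicylic acid synthesis, rose from 1.01 ± 0.126 TPM to 1.48 ± 0.116 TPM in flu1-1 ex1 and from 1.62 ± 0.127 TPM to 13.8 ± 0.677 TPM in flu1-5 ex1 (SD, n = 3), a difference of 2.19 (SE 0.13, limma adjusted p = 4.59e-08). ICS1, the main enzyme of that synthesis, was not called, at 0.10 (adjusted p = 0.47). NPR3, a salicylic acid receptor, stood at 24.0, 23.4 and 23.3 TPM in dark and 7.27, 5.69 and 6.79 TPM in light in flu1-1 ex1. In flu1-5 ex1, NPR3 stood at 28.5, 29.1 and 27.3 TPM in dark and 27.1, 26.1 and 26.3 TPM in light. Its light libraries lay below dark in both lines without overlap, but the fall was called in flu1-1 ex1 and not in flu1-5 ex1, a difference of 1.61 (SE 0.094, limma adjusted p = 4.93e-08). Of 26 jasmonate genes, 12 were higher and 4 lower (median 0.30, and 0.17 with no filter on low values). AOC3 and OPCL1, enzymes of jasmonate synthesis, had 2.18 (adjusted p = 6.4e-08) and 1.29 (adjusted p = 2.4e-05), while AOS, an earlier enzyme, had 0.008 (adjusted p = 0.928). MYC2, the main factor of jasmonate response, stood at 0, 0.0182 and 0 TPM in dark and 21.9, 21.4 and 18.7 TPM in light in flu1-1 ex1. In flu1-5 ex1, MYC2 stood at 5.01, 7.02 and 3.58 TPM in dark and 42.4, 38.5 and 39.3 TPM in light. It ended higher in flu1-5 ex1, and its rise in plain TPM was larger there, yet the difference on the log scale was -1.66 (SE 0.21, limma adjusted p = 7.89e-05). With a pseudocount of 5 the difference was -0.20 (adjusted p = 0.292). The ethylene list held 6 higher and 5 lower of 19 (median 0.10); with a pseudocount of 0.1 the count lower was 3. Its ACC synthases of stress, ACS6 and ACS11, had -0.76 (adjusted p = 2.99e-05) and -0.83 (adjusted p = 0.000977), and with a pseudocount of 0.1 ACS11 was at -0.54 and not called (adjusted p = 0.0998). Both stood higher in flu1-5 ex1 in dark, ACS6 at 5.45, 4.43 and 4.66 TPM in flu1-1 ex1 and 23.7, 23.3 and 22.5 TPM in flu1-5 ex1. The abscisic acid list held 5 higher and 3 lower of 20 (25% and 15%, median 0.04), against 11.3% higher and 18.3% lower over all genes. The count higher was 3 without flu1-5 ex1 dark replicate 2 or flu1-5 ex1 light replicate 3. Differences in the abscisic acid list ran from -0.74 to 1.03, with 1 member called at least 2-fold higher and 0 at least 2-fold lower. Among its members called lower were RAB18, a dehydrin, at -0.74 (adjusted p = 0.00661) and RD29A, a stress protein, at -0.71 (adjusted p = 0.000307). HAI1, RD29B and CYP707A3 went the other way and were called higher, but each lost the call in some settings. HAI1 was at 2.16 with a pseudocount of 0.1 (limma adjusted p = 0.0511). CYP707A3 was at 0.28 with a pseudocount of 5 (limma adjusted p = 0.0512). RD29B was at 0.70 without flu1-1 ex1 dark replicate 1 (limma adjusted p = 0.0615). The auxin list held 4 higher and 1 lower of 16 (25% and 6.25%, median -0.07), against 11.3% and 18.3% over all genes.

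Heat shock genes rose in both lines and more in flu1-5 ex1. Of 31 tested members 24 were called higher and 0 lower, against 11.3% and 18.3% over all genes, with a median of 0.88. With light, 28 of the 31 rose in flu1-1 ex1 and 29 in flu1-5 ex1, against 44.8% and 39.2% over all genes. In dark 5 members were higher and 6 lower in flu1-5 ex1, against 14.7% higher and 5.68% lower over all genes. In light 26 were higher and 1 lower, against 18.1% and 21% over all genes. HSP17.6A (AT5G12030), a small heat shock protein, stood at 0.580, 0.825 and 0.970 TPM in dark and 50.1, 55.1 and 49.5 TPM in light in flu1-1 ex1. In flu1-5 ex1, HSP17.6A stood at 0.510, 0.0835 and 0.168 TPM in dark and 230.5, 232 and 234 TPM in light. Dark levels were low in both lines, and the flu1-5 ex1 light libraries were all above the flu1-1 ex1 ones, with a difference of 2.68 (SE 0.16, limma adjusted p = 5.48e-08). HSP17.6C, HSP22.0 and HSP17.4, also small heat shock proteins, had differences of 2.97, 2.58 and 2.49 (adjusted p = 1.77e-07, 6.25e-07 and 3.35e-08). Some HSP17.6 genes share sequence, so their estimates may be split between copies. HSP21, the small heat shock protein of the chloroplast, was listed at 0 in every dark library and stood at 0.439, 0.581 and 0.445 TPM in flu1-1 ex1 and 6.77, 7.48 and 5.51 TPM in flu1-5 ex1 in light, with no overlap. HSFA2, a heat stress factor induced by heat and high light, stood at 0.0913, 0 and 0.327 TPM in flu1-1 ex1 dark and was listed at 0 in the flu1-5 ex1 dark libraries. In light it was at 71.7, 57.8 and 60.3 TPM in flu1-1 ex1 and 92.4, 91.4 and 84.4 TPM in flu1-5 ex1, again without overlap. CLPB3, the chaperone of the chloroplast, and CLPB4, that of mitochondria, rose in both lines and had differences of -0.085 (adjusted p = 0.303) and 0.055 (adjusted p = 0.652). Folding genes of the endoplasmic reticulum leaned the other way, with 3 higher and 9 lower of 19 (median -0.22). CNX1, the lectin chaperone calnexin, rose from 72.3 ± 1.33 TPM to 309.5 ± 5.84 TPM in flu1-1 ex1 and from 75.9 ± 0.704 TPM to 235 ± 2.72 TPM in flu1-5 ex1 (SD, n = 3), a difference of -0.46 (SE 0.037, limma adjusted p = 9.37e-07). BIP2, the main chaperone of this compartment, and SHD, its HSP90, had -0.43 (adjusted p = 2.38e-05) and -0.43 (adjusted p = 0.0197). NAC062, a membrane-bound factor, stood out in that list at 1.00 (adjusted p = 1.7e-06), as did ERDJ3A, a partner of BiP, at 0.91 (adjusted p = 0.00493), which with a pseudocount of 0.1 was at 0.70 and not called (adjusted p = 0.0534).

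Detoxification genes were higher in part, and antioxidant enzymes showed no common direction. Over all genes tested, 11.3% were called higher and 18.3% lower. Of 32 tested detoxification genes 20 were called higher and 6 lower (median 0.41); 3 were lower with quantile normalization. NAC102 (AT5G63790), a chloroplast-linked NAC factor, stood at 107, 103 and 107 TPM in dark and 67.5, 67.0 and 66.1 TPM in light in flu1-1 ex1. In flu1-5 ex1, NAC102 stood at 124, 122 and 118 TPM in dark and 319.9, 301 and 317 TPM in light. Light lowered it in flu1-1 ex1 and raised it in flu1-5 ex1 with no overlap between groups, a difference of 2.02 (SE 0.044, limma adjusted p = 1.5e-11). CYP81D11, a cytochrome P450 induced by xenobiotics, rose from 13.5 ± 0.761 TPM to 29.6 ± 1.33 TPM in flu1-1 ex1 and from 11.9 ± 0.332 TPM to 76.0 ± 1.33 TPM in flu1-5 ex1 (SD, n = 3), a difference of 1.5 (SE 0.069, limma adjusted p = 6.02e-09). AKR4C9, an aldo-keto reductase of reactive aldehydes, and CYP81D8, another P450, had -0.85 (adjusted p = 2.13e-05) and -0.76 (adjusted p = 8.29e-06). Both were higher in flu1-5 ex1 in dark, CYP81D8 at 24.2, 23.3 and 24.3 TPM in flu1-1 ex1 and 85.7, 79.6 and 82.7 TPM in flu1-5 ex1. Among antioxidant enzymes and ferritins 6 were higher and 8 lower of 29 (median -0.06), and 5 were lower without trend and robust moderation. FER1, the iron storage protein ferritin of leaves, fell from 507 ± 5.63 TPM to 183 ± 1.90 TPM in flu1-1 ex1 and from 304 ± 4.23 TPM to 223 ± 2.73 TPM in flu1-5 ex1 (SD, n = 3), a difference of 1.02 (SE 0.032, limma adjusted p = 2.87e-10); it began lower in flu1-5 ex1. FER4 and FER3, other ferritins, had 0.43 (adjusted p = 0.000299) and 0.31 (adjusted p = 0.000684). VTC2, the controlling enzyme of ascorbate synthesis, rose from 40.9 ± 0.368 TPM to 1097 ± 11.7 TPM in flu1-1 ex1 and from 60.0 ± 1.33 TPM to 1067 ± 9.86 TPM in flu1-5 ex1 (SD, n = 3) with a difference of -0.58 (SE 0.034, limma adjusted p = 4.95e-08); in light the lines were not called different.

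Sulphur assimilation genes carried many of the largest negative differences. Of 20 tested members 12 were called lower and 3 higher, against 18.3% lower over all genes, and 9 of the 12 lower ones were at least 2-fold, against 0.796% of all genes. APR1 (AT4G04610), an APS reductase that controls the reduction of sulphate, stood at 10.7, 9.91 and 10.7 TPM in dark and 223, 223 and 241 TPM in light in flu1-1 ex1. In flu1-5 ex1, APR1 stood at 18.4, 19.0 and 19.6 TPM in dark and 68.9, 75.7 and 68.7 TPM in light. Every flu1-5 ex1 library was above flu1-1 ex1 in dark and below it in light, so the lines changed order. Its light change was 4.33 in flu1-1 ex1 and 1.85 in flu1-5 ex1, a difference of -2.48 (SE 0.07, limma adjusted p = 1.09e-10). APR2, which carries most APS reductase activity in leaves, had -1.43 (SE 0.055, limma adjusted p = 1.43e-09), and APR3, named after its value was seen, had -1.19 (adjusted p = 6.18e-09). LSU2 (AT5G24660), of the small LSU proteins induced by low sulphur, stood at 2.56, 2.55 and 2.15 TPM in dark and 169.9, 168 and 155 TPM in light in flu1-1 ex1. In flu1-5 ex1, LSU2 stood at 4.60, 2.76 and 3.99 TPM in dark and 63.1, 65.2 and 70.5 TPM in light. Its rise was called in both lines and the light libraries did not overlap, with a difference of -1.77 (SE 0.16, limma adjusted p = 5.17e-06). LSU3 and LSU1 had -2.24 (adjusted p = 9.5e-08) and -1.80 (adjusted p = 1.71e-05); the LSU genes are similar in sequence, so estimates may be split between them. SDI2 and SDI1, which repress glucosinolate synthesis when sulphur is short, had -2.16 (adjusted p = 1.2e-05) and -1.93 (adjusted p = 3.63e-07), and GGCT2;1, which breaks down glutathione, had -1.68 (adjusted p = 4.97e-06); SDI1 and GGCT2;1 were named after their values were seen. Some enzymes of sulphate activation and of cysteine and glutathione synthesis moved otherwise: SERAT2;1, a serine acetyltransferase, had 1.18 (adjusted p = 4.2e-08), APS1, an ATP sulphurylase, 0.30 (adjusted p = 4.95e-05) and GSH2, glutathione synthetase, 0.29 (adjusted p = 4.88e-05), all called higher. Of the other ATP sulphurylases APS2, named after its value was seen, was called lower, at -0.37 (adjusted p = 0.000104), and APS3 and APS4 were not called, at 0.15 (adjusted p = 0.234) and -0.10 (adjusted p = 0.343). GSH1, the first enzyme of glutathione synthesis, was not called, at 0.04 (adjusted p = 0.444). In dark, 11 of the 20 were higher in flu1-5 ex1 and 0 lower, against 14.7% and 5.68% over all genes. In light 4 were higher and 12 lower, against 18.1% and 21% over all genes.

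**Figure D4:**
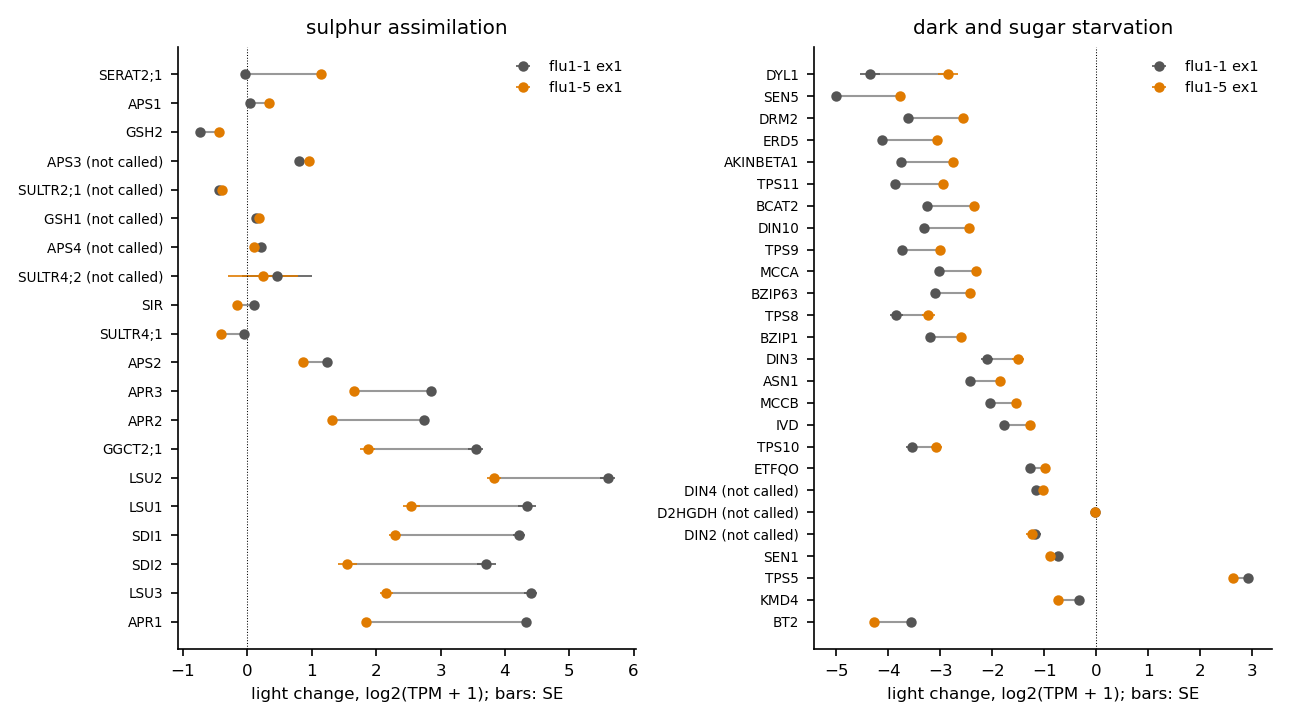
Light change with SE in flu1-1 ex1 (grey) and flu1-5 ex1 (orange) for the tested members of the sulphur assimilation list (left) and the dark and sugar starvation list (right), in log2(TPM + 1), sorted by difference. APR1, LSU3 and SDI2 rise less in flu1-5 ex1, and most starvation genes fall less in it.

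Other large negative differences came from genes that the sulphur list did not hold. SHM7 (AT1G36370), a serine hydroxymethyltransferase family member found in the nucleus, stood at 21.5, 20.1 and 21.0 TPM in dark and 95.7, 92.9 and 97.7 TPM in light in flu1-1 ex1. In flu1-5 ex1, SHM7 stood at 41.0, 39.4 and 38.8 TPM in dark and 33.3, 33.2 and 31.9 TPM in light. It rose in flu1-1 ex1 and fell slightly in flu1-5 ex1, where dark and light libraries did not overlap, a difference of -2.41 (SE 0.055, limma adjusted p = 1.5e-11). OXS3 (AT5G56550), a nuclear protein of stress tolerance, stood at 56.9, 50.9 and 53.1 TPM in dark and 42.6, 42.6 and 40.5 TPM in light in flu1-1 ex1. In flu1-5 ex1, OXS3 stood at 43.2, 49.0 and 45.9 TPM in dark and 5.59, 7.19 and 6.19 TPM in light. Light lowered it in both lines and far more in flu1-5 ex1, a difference of -2.34 (SE 0.10, limma adjusted p = 4.58e-09). MLP423, a latex-like protein, changed from 68.9 ± 2.93 TPM to 163 ± 2.69 TPM in flu1-1 ex1 and from 81.5 ± 2.79 TPM to 62.6 ± 2.58 TPM in flu1-5 ex1 (SD, n = 3), a difference of -1.60 (SE 0.057, limma adjusted p = 7.32e-10). XPL1, a methyltransferase of phosphocholine synthesis, rose from 18.0 ± 0.413 TPM to 53.2 ± 0.987 TPM in flu1-1 ex1 and was at 17.7 ± 0.337 TPM and 18.8 ± 0.273 TPM in flu1-5 ex1, with no called change (SD, n = 3). The difference was -1.43 (SE 0.054, limma adjusted p = 1.21e-09). CIB1, a partner of cryptochrome in flowering, and CYP77B1, a fatty acid cytochrome P450, had -1.60 (adjusted p = 0.000489) and -1.59 (adjusted p = 2.54e-08). HTH, needed for the cuticle and organ separation, changed from 41.7 ± 1.37 TPM to 62.8 ± 2.81 TPM in flu1-1 ex1 and from 46.7 ± 1.61 TPM to 27.8 ± 1.19 TPM in flu1-5 ex1 (SD, n = 3), a called rise and a called fall, with a difference of -1.31 (SE 0.064, limma adjusted p = 1.16e-08). AT5G21940, annotated as a histidine kinase M-like protein, fell in both lines and AT4G12735, an uncharacterized protein, rose in both, with differences of -1.50 (adjusted p = 2.87e-10) and -1.46 (adjusted p = 0.000105). MYB106, a factor of cuticle and epidermal cells, had -1.09 (adjusted p = 8.89e-07).

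Most light protection and flavonoid genes rose in both lines, 24 in flu1-1 ex1 and 23 in flu1-5 ex1, against 44.8% and 39.2% over all genes. Some of the list rose less in flu1-5 ex1. Of 30 tested members 8 were called lower, 6 higher and 16 in neither direction (median -0.07), against 18.3% lower and 11.3% higher over all genes. With a pseudocount of 0.1 the counts were 5 lower and 3 higher. CHS, chalcone synthase, the first step of flavonoid synthesis, stood at 10.7, 11.6 and 10.2 TPM in dark and 101, 97.8 and 99.7 TPM in light in flu1-1 ex1. In flu1-5 ex1, CHS stood at 12.1, 11.3 and 10.8 TPM in dark and 57.3, 58.2 and 59.2 TPM in light. The dark libraries overlapped and the light libraries did not, a difference of -0.82 (SE 0.071, limma adjusted p = 1.99e-06). FLS1, flavonol synthase, had -1.44 (adjusted p = 0.00963), and PAP1, a MYB factor of anthocyanin synthesis, had -1.42 (adjusted p = 1.15e-05) with low dark levels; with a pseudocount of 0.1 PAP1 was at -0.90 (adjusted p = 0.0859). ELIP1, an early light-induced protein of the thylakoid, reached 58.1, 59.1 and 62.5 TPM in flu1-1 ex1 and 40.1, 39.1 and 42.1 TPM in flu1-5 ex1 in light, a difference of -0.51 (SE 0.13, limma adjusted p = 0.00745); with a pseudocount of 0.1 it was at -0.46 and not called (adjusted p = 0.216). ELIP2, its close copy, was not called, at -0.35 (adjusted p = 0.195), but was called without flu1-5 ex1 dark replicate 1 (-0.52, adjusted p = 0.0232). BBX31 and BBX24, B-box factors of the light response, were higher, at 1.12 (adjusted p = 3.25e-05) and, named after its value was seen, 0.64 (adjusted p = 1.38e-06); with a pseudocount of 0.1 BBX31 was at 0.97 (adjusted p = 0.139). SIG5, the blue-light sigma factor of the chloroplast, rose from 3.44 ± 0.0869 TPM to 121 ± 3.54 TPM in flu1-1 ex1 and from 4.64 ± 0.534 TPM to 137 ± 1.76 TPM in flu1-5 ex1 (SD, n = 3) and was not called (adjusted p = 0.146). Genes of the mitochondrial dysfunction response held 5 lower and 2 higher of 11 (median -0.52), against 18.3% lower and 11.3% higher over all genes. The median was -0.26 with a pseudocount of 5, and none was called higher in limma without flu1-1 ex1 dark replicate 1 or flu1-5 ex1 dark replicate 2, and 1 without 7 of the other libraries in turn. AOX1A, the alternative oxidase of mitochondria, stood at 25.5, 24.4 and 24.9 TPM in dark and 103, 99.8 and 102 TPM in light in flu1-1 ex1. In flu1-5 ex1, AOX1A stood at 56.6, 58 and 57.1 TPM in dark and 141, 142 and 139.8 TPM in light. It was higher in flu1-5 ex1 at both times without overlap, yet rose less in proportion, with a difference of -0.70 (SE 0.041, limma adjusted p = 5.07e-08).

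Genes of dark and sugar starvation fell with light in both lines, 24 of 26 in each, and most fell less in flu1-5 ex1. Over all genes 28.9% fell in flu1-1 ex1 and 30.1% in flu1-5 ex1. Of the 26 tested members of this list 19 were called higher and 4 lower (median 0.60), against 11.3% and 18.3% over all genes. The median light change of the list was -3.15 in flu1-1 ex1 and -2.39 in flu1-5 ex1. SEN5 (AT3G15450), an aluminium-induced-like protein of dark-treated leaves, stood at 2438, 2378 and 2489 TPM in dark and 78.2, 77.3 and 70.2 TPM in light in flu1-1 ex1. In flu1-5 ex1, SEN5 stood at 1858, 1818 and 1858 TPM in dark and 133, 138 and 131 TPM in light. In dark flu1-5 ex1 was below flu1-1 ex1 and in light above it, without overlap, and the difference was 1.22 (SE 0.053, limma adjusted p = 3.84e-09). DYL1, a dormancy-associated protein, had 1.5 (adjusted p = 0.0029), and DRM2, a related protein, 1.06 (adjusted p = 9.86e-09). In dark, 15 members were lower and 0 higher in flu1-5 ex1, against 5.68% and 14.7% over all genes. In light, 16 were higher and 5 lower, against 18.1% and 21% over all genes. BT2, a regulator of nitrate and sugar signals, KMD4, an F-box protein, and TPS5, a trehalose-phosphate synthase, were called lower, at -0.71, -0.40 and -0.29 (adjusted p = 0.000146, 1.95e-05 and 0.0203). SEN1, a senescence-associated gene often used as a dark marker, was also lower, at -0.15 (SE 0.036, limma adjusted p = 0.00662). The PIF and shade list held 5 higher and 3 lower of 17, against 11.3% and 18.3% over all genes, and 3 were higher without any one of 6 libraries (flu1-1 ex1 dark replicate 3 and light replicates 1 and 2, flu1-5 ex1 dark replicates 2 and 3 and light replicate 2). Its members XTR7, a cell wall enzyme of shade growth, and PIF1, a factor that restrains chlorophyll synthesis in dark, had 1.01 (adjusted p = 0.000102) and -0.57 (adjusted p = 0.00558). The clock list held 8 higher and 2 lower of 22, none at least 2-fold; CHE had 0.63 (adjusted p = 9.28e-05) and RVE2 -0.57 (adjusted p = 2.95e-07), while CCA1 and LHY, core morning factors, were not called (0.22 and -0.32, adjusted p = 0.0672 and 0.0599).

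Many nuclear photosynthesis genes fell less in flu1-5 ex1. With light 36 of 44 fell in flu1-1 ex1 and 33 in flu1-5 ex1, against 28.9% and 30.1% over all genes. In dark 30 of the 44 were lower in flu1-5 ex1, against 5.68% over all genes. Of 44 tested members 23 were called higher and 2 lower (median 0.16), against 11.3% and 18.3% over all genes. None was at least 2-fold, and with quantile normalization 5 were lower. The summed level of these 44 genes was 131560.2 to 137533 TPM in flu1-1 ex1 dark and 116649 to 118057 TPM in flu1-5 ex1 dark, without overlap. In light the sums were 96569 to 99431 TPM and 96671 to 99950.4 TPM, and the lines overlapped. LHCB1.1 (AT1G29920), a chlorophyll-binding protein of the main light-harvesting complex, stood at 2082, 2203 and 2129 TPM in dark and 679.9, 673 and 668 TPM in light in flu1-1 ex1. In flu1-5 ex1, LHCB1.1 stood at 782, 811 and 832 TPM in dark and 451, 446 and 481 TPM in light. It was lower in flu1-5 ex1 at both times, with no overlap, and its fall was -1.66 in flu1-1 ex1 and -0.82 in flu1-5 ex1, a difference of 0.85 (SE 0.047, limma adjusted p = 3.15e-08); LHCB1 genes are nearly identical, so their estimates may be split between copies. LHCB2.3 and LHCB1.4 had 0.80 (adjusted p = 1.08e-05) and 0.75 (adjusted p = 1.91e-07), and the Rubisco subunit genes RBCS1A and RBCS1B were called lower, at -0.11 and -0.18 (adjusted p = 0.0366 and 0.0119). The call of RBCS1A was lost without 9 of the 12 libraries in turn (adjusted p = 0.0585 to 0.0893), with the replicate number as a block (adjusted p = 0.0557) and without trend and robust moderation (adjusted p = 0.148). RBCS1B was not called without trend and robust moderation (adjusted p = 0.0523). The tetrapyrrole list, which makes chlorophyll and haem, held 10 lower and 5 higher of 31 (median -0.13), against 18.3% and 11.3% over all genes. The count higher was 3 without flu1-1 ex1 light replicate 1 or flu1-5 ex1 light replicate 2 or 3. HEMA2, a stress form of glutamyl-tRNA reductase, the entry enzyme of the pathway, went from 33.9 ± 1.08 TPM to 11.2 ± 1.05 TPM in flu1-1 ex1 and from 40.8 ± 1.99 TPM to 33.2 ± 0.798 TPM in flu1-5 ex1 (SD, n = 3), a difference of 1.23 (SE 0.085, limma adjusted p = 2.43e-07). FC1, a stress-induced ferrochelatase of the haem branch, rose from 25.3 ± 0.480 TPM to 57.7 ± 0.786 TPM in flu1-1 ex1 and from 42.0 ± 1.03 TPM to 142 ± 3.28 TPM in flu1-5 ex1 (SD, n = 3), with 0.58 (SE 0.046, limma adjusted p = 9.69e-07). HEMA1, the main form, was not called, at 0.10 (adjusted p = 0.0949), and GSA2, the next enzyme, was lower, at -0.27 (adjusted p = 0.000181). None of the 88 chloroplast-encoded genes had a called difference in limma, and 1 had an unadjusted p under 0.05; 1 was called without flu1-5 ex1 light replicate 1 or with quantile normalization, and 2 without flu1-5 ex1 light replicate 2.

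**Figure D5:**
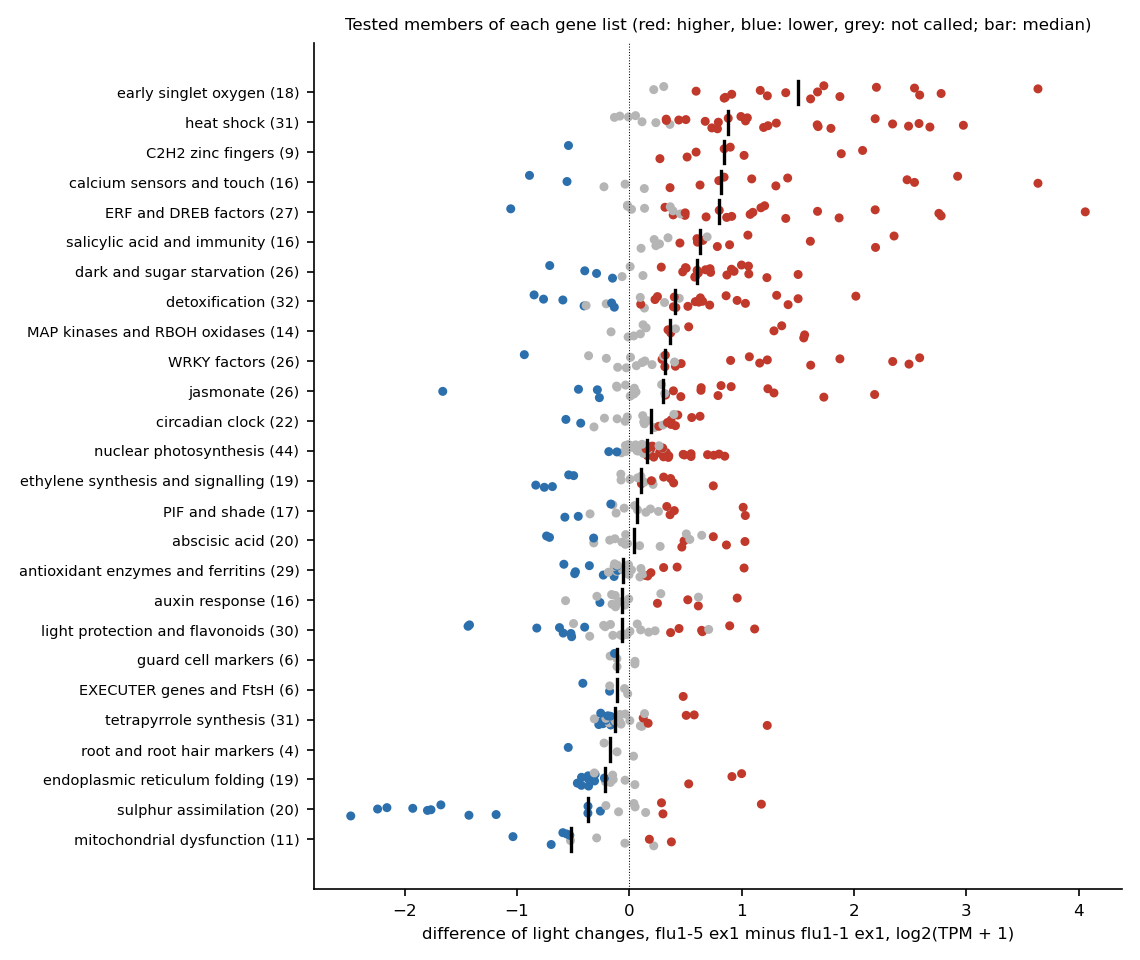
Difference of light changes (flu1-5 ex1 minus flu1-1 ex1, log2(TPM + 1)) for the tested members of each gene list, with the number tested in brackets; red points are called higher, blue called lower, grey not called, and bars are list medians. Early singlet oxygen genes lie highest, with a median of 1.5, and the sulphur list has the longest tail of lower members, down to -2.48.

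Short promoter windows of the genes named above were read to show which known motifs they hold. Each window covers the 250 bases before the annotated start of the gene in RefSeq TAIR10.1; the files hold no coordinates, and the submitters' processing notes name TAIR10. The 8 motifs searched, on both strands, were CACGTG (G-box), TTGACC and TTGACT (W-box cores of WRKY factors), GAANNTTC (heat shock element core), GCCGCC (GCC box of ERF factors), AAATATCT (evening element), ACGCGT (a core bound by calmodulin-binding CAMTA factors) and TGACG (TGA factor core). Windows were found for 362 of the 2-fold higher genes, 141 of the 2-fold lower genes and 17698 of the genes tested. TTGACT was present in 33.1% of the higher genes, 17% of the lower genes and 18.5% of all genes tested, and TTGACC in 20.2%, 17% and 12%. GAANNTTC stood in 57 of the 362, 11 of the 141 (7.8%) and 1640 of the 17698 (9.27%), and ACGCGT in 6.08%, 0% and 1.82%. For CACGTG the shares were 9.94%, 7.8% and 7.39%, for TGACG 24.9%, 17% and 19.2%, for AAATATCT 8.01%, 6.38% and 5.09% and for GCCGCC 3.59%, 1.42% and 1.99%. These shares are descriptions without a test, and a motif in a window is not a site shown to act.

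The windows printed here, 5′ to 3′ on the strand of the gene with motif letters in capitals, are examples that each hold a motif, which many of the largest differences do not: CML37 (chr5:16943821-16944070, minus strand) and BAG6 (chr2:18985883-18986132, plus strand) with GAANNTTC, which BAG6 holds beside CACGTG, BON1 (chr5:24859342-24859591, minus strand) with TTGACT and TTGACC, AT2G32210 (chr2:13677736-13677985, plus strand) with ACGCGT beside TTGACC, and APR1 (chr4:2324628-2324877, plus strand) and SHM7 (chr1:13698740-13698989, minus strand) for the lower genes. AT2G32210, annotated as a cysteine-rich transmembrane domain protein, was chosen after its values were seen, and its difference was 2.03. It had the largest positive difference with an ACGCGT among genes averaging no less than the median gene with no group listed at 0.
CML37: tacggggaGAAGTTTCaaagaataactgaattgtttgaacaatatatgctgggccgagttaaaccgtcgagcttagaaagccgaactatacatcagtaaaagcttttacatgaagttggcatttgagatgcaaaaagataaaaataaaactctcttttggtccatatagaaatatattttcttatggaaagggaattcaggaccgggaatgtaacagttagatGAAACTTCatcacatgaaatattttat
BAG6: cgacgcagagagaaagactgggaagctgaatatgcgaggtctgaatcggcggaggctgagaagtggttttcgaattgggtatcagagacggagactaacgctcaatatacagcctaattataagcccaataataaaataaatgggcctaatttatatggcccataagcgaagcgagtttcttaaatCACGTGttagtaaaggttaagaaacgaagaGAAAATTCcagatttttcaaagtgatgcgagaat
BON1: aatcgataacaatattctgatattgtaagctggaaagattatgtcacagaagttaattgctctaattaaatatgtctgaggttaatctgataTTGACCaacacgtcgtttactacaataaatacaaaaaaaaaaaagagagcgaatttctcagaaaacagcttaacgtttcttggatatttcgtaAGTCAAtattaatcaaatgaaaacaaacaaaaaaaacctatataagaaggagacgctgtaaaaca
AT2G32210: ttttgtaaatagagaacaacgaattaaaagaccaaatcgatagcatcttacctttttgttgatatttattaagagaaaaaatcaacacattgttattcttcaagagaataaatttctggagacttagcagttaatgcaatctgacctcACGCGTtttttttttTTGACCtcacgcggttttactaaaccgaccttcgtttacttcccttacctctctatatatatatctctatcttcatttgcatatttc
APR1: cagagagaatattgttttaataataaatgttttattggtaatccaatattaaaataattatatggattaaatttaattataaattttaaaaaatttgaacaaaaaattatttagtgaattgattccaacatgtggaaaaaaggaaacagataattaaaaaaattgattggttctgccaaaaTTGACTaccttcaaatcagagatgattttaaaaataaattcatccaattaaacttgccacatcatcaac
SHM7: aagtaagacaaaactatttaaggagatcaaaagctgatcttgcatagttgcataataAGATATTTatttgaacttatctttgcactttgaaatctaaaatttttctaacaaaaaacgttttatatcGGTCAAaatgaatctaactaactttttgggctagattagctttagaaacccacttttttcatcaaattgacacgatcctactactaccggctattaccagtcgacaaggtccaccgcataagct

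CML37 holds GAANNTTC at both ends of its window, and the MYB15 window (chr3:8308959-8309208, plus strand), of the largest positive difference not resting on a group listed at 0, holds none of the motifs. APR1 holds 1 TTGACT, and SHM7 holds TTGACC and AAATATCT, each read on the opposite strand. Among the 14 largest positive differences searched, 5 held GAANNTTC (CML37, HSP17.6C, CML38, BAG6 and HSP17.4), 3 held TTGACT (BON1, TCH4 and AT5G10695) and none ACGCGT. Besides MYB15, the windows of AT1G47130, ERF6 and WRKY46 held none of the motifs. Nor did those of LSU2, MYC2, MLP423, CIB1, CYP77B1, AT5G21940 and APR2 among the largest negative differences.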

How the data were processed

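RNA-seq libraries of whole seedlings were read on the DNBSEQ-T7 instrument. For each line the authors deposited TPM values of 6 libraries; headers and column totals give the unit. The submitters' processing notes name kallisto 0.46.2, sleuth 0.30.0 and TAIR10, without their roles. The tables list 1 transcript per gene, so a switch of transcript can appear as a change in level. Genes whose tables list different transcripts (971) were left out. Symbols and products come from RefSeq TAIR10.1.

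Values were taken as log2(TPM + 1), which understates changes of low genes, and fitted over 4 groups of 3 libraries with limma 3.58.1 (trend, robust; statmod 1.5.0, R 4.3.3). Genes averaging 1 TPM or more were tested, two-sided, for the interaction of line and light, with Benjamini-Hochberg adjustment over 17830 genes. Data were simulated for this comparison over 17830 genes, with 50 genes changed at each size below and all others unchanged. Of genes changed 1.2-, 1.5-, 2- and 4-fold, 20%, 62%, 90% and 98% were recovered, and 8.78% of calls were false. In the data a far larger share was called (29.6%), so these rates do not carry over to the calls reported here. The labels share replicate numbers between groups.

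The members and lists were chosen with earlier results of these data known, so lists have counts and medians and no test of their own. Genes for the text were taken from, among called genes averaging no less than the median gene, the 15 largest differences in each direction and the 5 largest of each pattern; the 3 largest called members of each list in each direction; the largest of each family; and FLU, EX1, EX2, AAA-ATPase, BAP1, ZAT12, OXI1, HSP21, HSFA2, ELIP1, ELIP2, SEN1, LOX3 and FER1. Alternatives were quantile normalization, totals without chloroplast-encoded genes, pseudocounts of 0.1 and 5, no filter or a mean of at least 5 TPM, no trend or robust moderation, an adjusted p under 0.01, the replicate number as a block, and leaving out each library.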

Additional observations from a re-analysis of the deposited data

Results flagged for a closer look

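The difference between the lines is itself the comparison tested, so each called gene meets the rule for a light effect that differs between lines: 2012 genes with a positive and 3261 with a negative difference, flu1-5 ex1 minus flu1-1 ex1 (limma adjusted p under 0.05). The clearest cases are genes whose light change was called in both lines with opposite signs, chosen by the size of the difference among genes averaging no less than the median gene. Those that fell in flu1-1 ex1 and rose in flu1-5 ex1 were ERF6 (difference 2.78), CML38 (2.54), AT3G60415, a phosphoglycerate mutase family protein (2.13), AT1G50740, a transmembrane protein of the 14C family (2.115), and AT2G26190, a calmodulin-binding family protein (2.03). AT3G60415 stood at 14.2, 12.7 and 16.3 TPM in dark and 12.4, 10.9 and 10.7 TPM in light in flu1-1 ex1. In flu1-5 ex1, AT3G60415 stood at 14.9, 17.2 and 15.4 TPM in dark and 58.6, 56.2 and 59.7 TPM in light. The lines overlapped in dark and were apart in light. Those that rose in flu1-1 ex1 and fell in flu1-5 ex1 were SHM7 (-2.41), MLP423 (-1.6), CYP77B1 (-1.59), AT2G21210, a SAUR-like protein of the auxin-responsive family (-1.35), and HTH (-1.31). AT2G21210 stood at 36.9, 31.9 and 36.3 TPM in dark and 79.4, 76.9 and 61.8 TPM in light in flu1-1 ex1. In flu1-5 ex1, AT2G21210 stood at 38.9, 43.0 and 45.0 TPM in dark and 31.4, 34.0 and 35.4 TPM in light.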

How the results depend on the processing

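The counts of called genes kept within 1.5 times of their values in the settings tried, with these exceptions. An adjusted p under 0.01 left 1332 higher and 1976 lower genes. With a pseudocount of 5 there were 220 genes at least 2-fold higher and 34 at least 2-fold lower, and with 0.1 there were 238 at least 2-fold lower; a pseudocount shrinks or stretches the log change of low genes by construction. Leaving out 1 library gave 1818 to 1910 higher, 2863 to 3111 lower, 349 to 374 at least 2-fold higher and 132 to 148 at least 2-fold lower. Quantile normalization gave 2121 higher and 2892 lower, and the median of all genes was -0.035 in place of -0.056.

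Replicate numbers are shared between groups, and whether they pair the libraries is not known. Same-numbered libraries of different groups correlated at -0.0615 to 0.153 in their deviations from group means, with 1 of 18 pairs over 0.1, and 2 of 12 libraries correlated best with their own number. Low correlations cannot show that the libraries were unpaired. Replicate 3 had the highest chloroplast-encoded share in flu1-1 ex1 dark (2.87%), flu1-1 ex1 light (1.71%) and flu1-5 ex1 dark (2.15%). In flu1-5 ex1 light replicate 1 had the highest (1.82%). The fit with the replicate number as a block gave 1939 higher and 3121 lower, and 365 and 143 at least 2-fold; 4890 of its 5060 calls were also called without the block.

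Of 198 genes with a called difference that the rule for named genes selects, not all of them printed, 161 were called in each of the 20 other fits that gave a value, 36 lost the call in at least 1, and OXI1 changed sign with a pseudocount of 0.1 (-0.011). Of 54 list counts, 19 moved by over 1.5 times in at least 1 setting; these counts were 8 or fewer. In 29 positive and 46 negative calls the difference has the other sign in plain TPM; among calls of at least 2-fold these were 4 and 2. Depth is unknown, so genes near 1 TPM are the least certain: 101 of the 362 and 38 of the 142 had a mean under 5 TPM. Of the called genes 13 were listed at 0 in all libraries of a group.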

Other observations

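Groups of genes outside the lists, chosen after their values were seen and by their RefSeq product names, showed where many of the small negative differences lie. Of 315 ribosomal protein genes, 191 were called lower and 3 higher, with a median difference of -0.25, against 18.3% lower and -0.056 over all genes. With light 242 of the 315 rose in flu1-1 ex1 and 192 in flu1-5 ex1, against 44.8% and 39.2% over all genes. The median light change of the 315 was 0.45 in flu1-1 ex1 and 0.19 in flu1-5 ex1. The largest negative difference among them was that of AT5G59240, a protein of the S8e family, at -0.73 (SE 0.17, limma adjusted p = 0.00589), where it rose from 1.1 ± 0.399 TPM to 9.52 ± 0.392 TPM in flu1-1 ex1 and from 1.49 ± 0.161 TPM to 6.58 ± 0.473 TPM in flu1-5 ex1 (SD, n = 3). Of 19 chaperonin genes, which fold proteins in chloroplasts, mitochondria and cytosol, 15 were lower and 1 higher (median -0.24); Cpn60beta2, a chloroplast chaperonin subunit, rose from 86.5 ± 2.52 TPM to 301 ± 7.21 TPM in flu1-1 ex1 and from 109 ± 3.55 TPM to 218 ± 3.22 TPM in flu1-5 ex1 (SD, n = 3), a difference of -0.79 (SE 0.046, limma adjusted p = 4.61e-08). Of 18 DEAD-box RNA helicases 10 were lower and 0 higher, and of 16 proteins of the plastid transcription complex 10 were lower and 0 higher.

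In lipid groups, 9 of 15 3-ketoacyl-CoA synthases, which elongate fatty acids for waxes, and 21 of 38 GDSL lipases were called lower, with 0 and 2 higher, against 18.3% lower and 11.3% higher over all genes. Among GDSL lipases the count higher was 0 without replicate 3 of flu1-5 ex1 dark or of flu1-5 ex1 light. KCS19 had -0.73 (adjusted p = 1.56e-05) and the GDSL lipase AT5G45670 had -1.17 (adjusted p = 1.4e-07), the latter rising in flu1-1 ex1 and falling in flu1-5 ex1. Of receptor and regulator groups, 8 of 18 cysteine-rich receptor-like kinases, 8 of 17 VQ motif proteins and 9 of 19 B-box factors were higher, with 1, 1 and 2 lower; for VQ proteins 5 were higher without replicate 1 of either light group. CRK39 reached 0.454, 0.579 and 0.772 TPM in flu1-1 ex1 and 7.51, 6.06 and 6.69 TPM in flu1-5 ex1 in light from under 1 TPM in dark, a difference of 2.16 (SE 0.19, limma adjusted p = 2.53e-06). Only its flu1-5 ex1 light libraries were above 1 TPM, so CRK39 was tested only because of the group where it was high. CRK3 went from 9.42 ± 0.496 TPM to 8.98 ± 0.301 TPM in flu1-1 ex1 and from 11.9 ± 0.626 TPM to 31.2 ± 1.61 TPM in flu1-5 ex1 (SD, n = 3), with no call in flu1-1 ex1, a difference of 1.38 (SE 0.085, limma adjusted p = 8.28e-08). Among 111 families of shared symbol with at least 10 tested genes, the highest medians were in ERF (0.50), BBX (0.34) and GSTU (0.33), and the lowest in BHLH (-0.61), FLA (-0.33) and KCS (-0.28). With a mean of at least 5 TPM the median of BHLH was -0.19 and that of GSTU 0.13.

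The summed level of the 12 root and root hair markers was 869.5 to 884 TPM in flu1-1 ex1 dark and 989 to 1029 TPM in its light libraries, and 877 to 951 TPM and 728 to 740.1 TPM in flu1-5 ex1. Nearly all of it came from PYK10, a beta-glucosidase of root and seedling endoplasmic reticulum bodies, at 859, 853 and 846 TPM in dark and 979.5, 957 and 996 TPM in light in flu1-1 ex1. In flu1-5 ex1, PYK10 stood at 925, 891 and 853 TPM in dark and 695, 704 and 696 TPM in light; its difference was -0.54 (SE 0.039, limma adjusted p = 3.97e-07). The 6 guard cell markers summed to 2171 to 2198 TPM and 2337 to 2393 TPM in flu1-1 ex1, and 2214 to 2280 TPM and 2430.5 to 2506 TPM in flu1-5 ex1; their part in any result was not tested.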
